A study of Mus musculus with 8 samples.

Results

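Matricellular and integrin-binding glycoproteins are secreted proteins that sit in or on the extracellular matrix and signal to cells through integrins and other surface receptors. The members described here are 10 genes. They are the tenascins Tnc and Tnr, the SPARC family genes Sparc and Sparcl1, Edil3 and its relative Mfge8, the fibronectin gene Fn1, the biglycan gene Bgn, Tgfbi and the thrombospondin gene Thbs1. The genes were chosen by name, with earlier results of these data known, among them the differences of Tnc, Sparcl1 and Edil3 between the phenotypes. Each was taken as the transcript cluster, the unit that the array reports, that carries its symbol and no other. Among several such clusters of a gene, the one selected on its mean signal over all 8 arrays, the brightest, was to stand for it, but each of the 10 genes had 1. They are 10 of 19938 genes so measured, on an array of 35556 transcript clusters.

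The cells were Neuro2a, a long-established neuroblastoma line of A/J mice (labelled AJ), and their RNA was hybridized to Affymetrix mouse gene arrays. The 4 arrays of anchorage dependent (AD) cells came from cells that grew attached to the plate in DMEM with 10% fetal bovine serum. The 4 arrays of anchorage independent (AI) cells came from detached tumorspheres grown without serum in NeuroCult neural stem cell medium. This medium held EGF at 20 ng/ml, bFGF at 10 ng/ml and heparin at 2 µg/ml. The AI cells are labelled as resistant to anoikis, the death of detached cells. The labels name no introduced allele, and medium and attachment change together, so their parts in any difference cannot be told apart. The submitters describe independent cultures and the methods speak of replicate hybridizations, so that the spread between arrays may be partly technical. Signals are log2 values as deposited, and the difference given is always AD minus AI, so that a negative value means less signal in AD cells.

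Most matricellular proteins do not build the scaffold of a tissue. They bind structural matrix, growth factors and cell surface receptors, and change how firmly cells hold on. Tenascins and SPARC proteins are known for loosening adhesion, fibronectin for supporting it through the integrin α5β1, and Edil3 and Mfge8 for joining integrins of the αv class to membranes through phosphatidylserine. During development of the neural crest, from which neuroblastoma arises, migrating cells move through matrix rich in fibronectin and tenascin C.

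The promoter sequences below show what lies before the start of transcription in members with differences of different size. Tnc and Bgn had 2 of the large differences, Tgfbi an intermediate one and Sparc one under the 1.5-fold limit. RefSeq sequences (mouse assembly GRCm38.p6) were found for 6 of the 10 genes, namely Tnc, Tnr, Sparc, Mfge8, Tgfbi and Bgn. For Tnc, RefSeq gives more than 1 start, and the window before the start that lies further upstream is shown. The 250 bases before the start are given 5′ to 3′ in lower case. Capitals mark each E-box (CANNTG), the element that helix-loop-helix proteins bind, and each GC box (GGGCGG, or CCGCCC on the other strand), the element that Sp1 binds.
Tnc, chr4:64047016-64047265, minus strand: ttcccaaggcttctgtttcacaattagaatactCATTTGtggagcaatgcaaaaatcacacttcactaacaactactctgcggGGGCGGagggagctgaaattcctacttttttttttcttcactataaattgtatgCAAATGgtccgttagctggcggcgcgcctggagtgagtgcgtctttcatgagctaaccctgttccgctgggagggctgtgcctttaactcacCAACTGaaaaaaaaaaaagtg
Bgn, chrX:73483351-73483600, plus strand: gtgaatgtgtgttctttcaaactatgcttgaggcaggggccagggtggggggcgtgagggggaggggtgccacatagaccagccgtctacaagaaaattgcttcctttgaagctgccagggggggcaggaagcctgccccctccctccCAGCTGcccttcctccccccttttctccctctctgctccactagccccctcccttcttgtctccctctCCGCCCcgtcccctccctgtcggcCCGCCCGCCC
Tgfbi, chr13:56609336-56609585, plus strand: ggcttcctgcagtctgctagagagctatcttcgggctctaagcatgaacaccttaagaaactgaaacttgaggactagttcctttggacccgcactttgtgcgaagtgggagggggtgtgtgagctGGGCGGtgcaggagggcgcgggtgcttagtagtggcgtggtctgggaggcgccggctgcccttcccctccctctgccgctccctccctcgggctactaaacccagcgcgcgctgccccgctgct
Sparc, chr11:55420081-55420330, minus strand: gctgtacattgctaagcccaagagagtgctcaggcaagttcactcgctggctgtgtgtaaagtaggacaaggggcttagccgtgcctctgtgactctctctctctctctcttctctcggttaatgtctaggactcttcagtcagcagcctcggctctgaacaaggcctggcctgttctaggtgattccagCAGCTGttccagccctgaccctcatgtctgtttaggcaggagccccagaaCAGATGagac

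An E-box was present in 4 of the 6 members with a sequence (Tnc, Bgn, Mfge8 and Sparc), and in 66.2% of the 32851 promoter windows of the same length in the RefSeq table. A GC box was present in 4 of the 6 (Tnc, Bgn, Mfge8 and Tgfbi), and in 32.7% of all windows. The Bgn window held 3 GC boxes, of which a pair overlaps, and that of Mfge8 held 4. The letters CAGAC, to which Smad proteins bind, read on both strands, were found in 3 of the 6 (Tnr, Sparc and Tgfbi) and in 42.2% of all windows. That count takes the Tnc window shown. The window before the other Tnc start held 1 match, at position -70. The AP-1 element TGANTCA was found in 0 of the 6 and in 6.75% of all windows. GC content of the windows shown was 44.8% for Tnc, 64.4% for Bgn, 62.4% for Tgfbi and 54.0% for Sparc. The window before the other Tnc start had 51.2%, so the value for Tnc depends on the start taken. A match of letters is a description of the sequence and not a binding site.

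The array-wide facts that touch these genes are few. Array medians were 5.82 to 5.92 log2 on AD arrays against 5.92 to 5.99 log2 on AI arrays, and a signal under the median of its own array is treated here as near background, since the table holds no detection call. The lowest correlation over clusters was 0.991 between AD arrays and 0.994 between AI arrays. Markers of sympathetic neuroblasts, the cell type of the label, lay above the median of every array for each of the 10 measured. Of these, 3 were called higher in AD cells and none lower, and the mean of the list was 9.57 to 9.74 log2 on AD arrays against 9.06 to 9.14 log2 on AI arrays. Dbh, the enzyme that makes noradrenaline, read 9.64, 9.81, 9.65 and 9.06 log2 on AD arrays against 6.62, 6.67, 6.47 and 6.37 log2 on AI arrays, and Phox2a and Th, also called, had differences of 1.13 and 0.60. The markers that were not called had differences in both directions, with 0.44 for Elavl4, 0.34 for Isl1, 0.31 for Gata3, 0.06 for Chga, -0.0044 for Hand2, -0.05 for Stmn2 and -0.23 for Gata2. The part of the called markers in the differences of the glycoprotein genes was not tested. Of 10 fibroblast or mesenchymal markers, 6 lay below the median on all 8 arrays and none was called, and the mean of the list was 6.13 to 6.22 log2 on AD arrays against 6.08 to 6.13 log2 on AI arrays. Dcn, decorin, 1 of those 6, averaged 5.25 log2 on AD arrays against 5.19 log2 on AI arrays. Col1a1, a fibroblast collagen, averaged 5.79 log2 in each phenotype and lay below the median on 3 AD and 4 AI arrays. Vim averaged 11.81 log2 in each phenotype, and Snai2 averaged 6.52 log2 on AD arrays against 6.39 log2 on AI arrays. Both lay above the median on every array. Pdgfra averaged 6.06 log2 on AD arrays against 5.98 log2 on AI arrays, with 1 AI array below its median. Schwann or glial, endothelial and macrophage markers gave no call among 5, 4 and 4 measured, of which 4, 3 and 4 lay below the median on all 8 arrays. Erbb3, of the Schwann or glial list, lay above the median on every array. Its difference was -0.52 (adjusted p = 0.0017 from limma), under the 1.5-fold limit. Pecam1, of the endothelial list, also lay above the median on every array, with a difference of -0.18.

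Of the 10 genes, 7 were lower in AD cells, 3 were not called and none was higher. A gene was called where limma's adjusted p, after Benjamini-Hochberg adjustment over all 35556 clusters, was under 0.05 and the ratio was at least 1.5-fold. Over all clusters, 2.53% were called lower in AD cells, 1.39% were called higher and 3.93% were called in either direction. Calls lower in AD cells made up 64.5% of 1396, and 47.0% of 1378 with each array centred on its median. Because results of the same contrast were known when the genes were chosen, nothing is read from the count of 7, and the adjusted p of single genes describe the fit over all clusters and are not independent evidence. The median difference of the 10 genes was -0.83 log2. In descending order of measured size, the differences were those of Sparcl1, Tnc, Edil3, Bgn, Tgfbi, Fn1, Mfge8, Sparc, Tnr and Thbs1, an order that is not settled among Sparcl1, Tnc, Edil3 and Bgn, since AD signals of the last 3 lay near background. The AD and AI arrays did not overlap for 9 of the 10 genes, all lower in AD cells. Over all clusters, 11.5% did not overlap in that direction. Nothing is read from this count of 9 either, since results of the same contrast were known when the genes were chosen. Bulk RNA was measured, in which fewer cells that express a gene and less RNA per cell cannot be told apart.

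**Figure D1:**
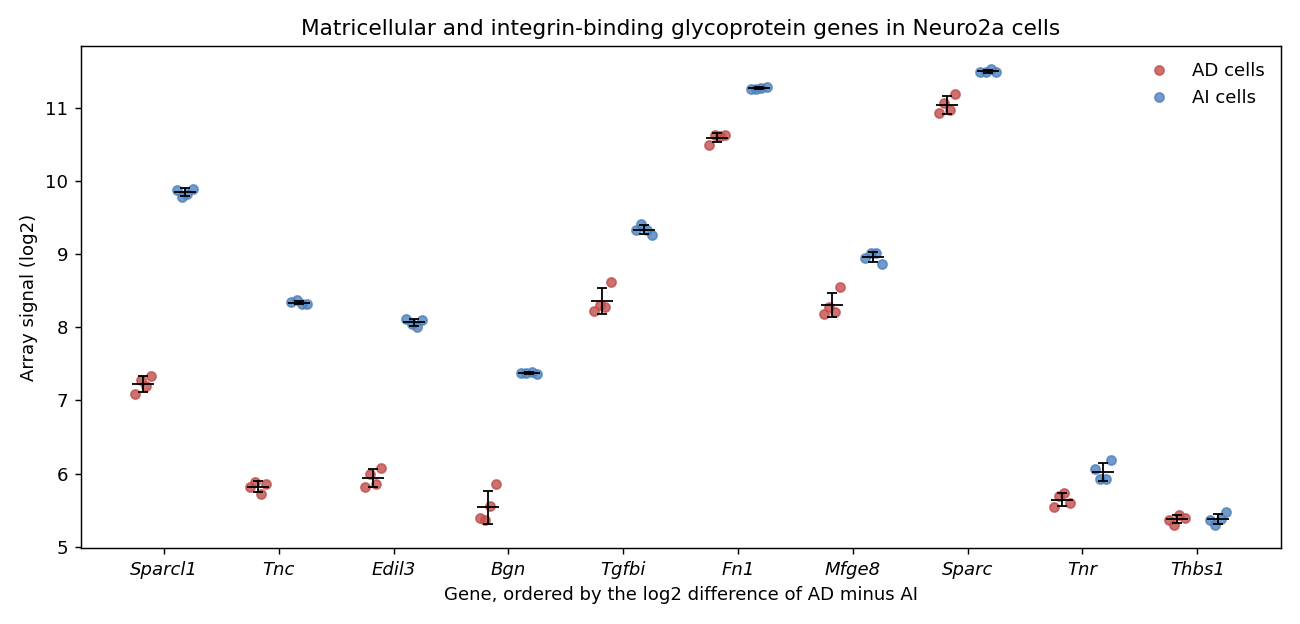
Array signal (log2) of the 10 glycoprotein genes in AD (left of each pair) and AI (right) Neuro2a cells. Each dot is 1 array, with 4 per phenotype, the black bars are means with SD, and genes run from Sparcl1, with means of 7.23 log2 on AD arrays against 9.85 log2 on AI arrays, to Thbs1, where the phenotypes overlap; heights of different genes cannot be set against each other, since probes differ.

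Tenascin C is a large hexameric glycoprotein that counters cell spreading on fibronectin and is prominent in embryonic and tumor matrix. Tnc (transcript cluster 10513739) read 5.82, 5.88, 5.72 and 5.86 log2 in the AD arrays, against 8.35, 8.37, 8.32 and 8.32 log2 in the AI arrays. All AD arrays were low and all AI arrays high, with 2.44 log2 between the highest AD and the lowest AI array. The mean was 5.82 ± 0.07 log2 on AD arrays against 8.34 ± 0.03 log2 on AI arrays (SD, n = 4 per phenotype), which is 5.73-fold lower in AD cells. In 3 of the 4 AD arrays the Tnc signal was below the median of its own array, so the size of the ratio is not known exactly. No p is given for Tnc, Sparcl1 or Edil3, because the size of their change had been seen before they were chosen.

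Tenascin R, the other tenascin here, is a glycoprotein of the nervous system made mainly by oligodendrocytes and some neurons. Tnr (transcript cluster 10350951) read 5.54, 5.69, 5.74 and 5.60 log2 in AD cells, against 6.06, 5.92, 5.92 and 6.18 log2 in AI cells. The groups did not overlap, but only 0.18 log2 lay between them, and every AD array and 1 AI array were below the array median. The difference was -0.38 (standard error 0.08, adjusted p = 0.00793 from limma), which is under the 1.5-fold limit and was not called. Within each array, the Tnc signal minus the Tnr signal was -0.02 to 0.28 log2 on AD arrays against 2.14 to 2.45 log2 on AI arrays. These are given as a description, since Tnc was chosen for its change and signals of both genes lay near background on AD arrays.

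SPARC, or osteonectin, is a collagen-binding protein that rounds cells up and regulates matrix assembly, and Sparcl1, also called hevin, is its relative that astrocytes release and that promotes the formation of synapses. Sparcl1 (transcript cluster 10531931) read 7.09, 7.28, 7.20 and 7.34 log2 in AD cells, against 9.88, 9.78, 9.83 and 9.90 log2 in AI cells. Every array of either phenotype lay above its array median, so that the ratio of Sparcl1 does not rest on signals near background. The mean was 7.23 ± 0.10 log2 on AD arrays against 9.85 ± 0.05 log2 on AI arrays (SD, n = 4 per phenotype), or 6.15-fold lower in AD cells. The gap between the groups was 2.45 log2.

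Sparc (transcript cluster 10386058) read 10.94, 11.07, 10.97 and 11.20 log2 in AD cells, against 11.49, 11.50, 11.54 and 11.49 log2 in AI cells. All 8 signals were far above the array median, the AI arrays had an SD of 0.02 log2, and AD replicate 4 was the AD array nearest to them. The difference was -0.46 (standard error 0.06, adjusted p = 0.00145 from limma), or 1.37-fold lower signal, and was not called. Within each array, Sparcl1 minus Sparc was -3.86 to -3.77 log2 on AD arrays against -1.72 to -1.59 log2 on AI arrays. This is again a description, since Sparcl1 was chosen for its change.

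Edil3, or Del-1, and Mfge8, or lactadherin, have the same architecture of EGF-like domains with an RGD motif for αv integrins, followed by discoidin domains that bind phosphatidylserine. Edil3 (transcript cluster 10406504) read 5.82, 6.00, 5.86 and 6.08 log2 in AD cells, against 8.11, 8.05, 8.01 and 8.10 log2 in AI cells. The AD arrays sat around the array median, with 2 of 4 below it, and every AI array lay at least 1.93 log2 above the highest AD array. The mean was 5.94 ± 0.12 log2 on AD arrays against 8.07 ± 0.05 log2 on AI arrays (SD, n = 4 per phenotype), or 4.37-fold lower in AD cells, a ratio whose size is again not known exactly.

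Mfge8, which bridges dying cells to the phagocytes that clear them, was also lower in AD cells, by less than Edil3. Mfge8 (transcript cluster 10564713) read 8.19, 8.28, 8.21 and 8.55 log2 in AD cells, against 8.95, 9.02, 9.02 and 8.87 log2 in AI cells. AD replicate 4 was the highest AD array and AI replicate 4 the lowest AI array, and 0.32 log2 lay between them. The difference was -0.66 (standard error 0.08, adjusted p = 0.000902 from limma), or 1.58-fold lower in AD cells. Of the 7 called among the 10 genes it lay nearest to the 1.5-fold limit, and with each array centred on its median the difference was -0.58 (adjusted p = 0.00169 from limma), which is just under the limit. Edil3 minus Mfge8 was -2.47 to -2.27 log2 on AD arrays against -1.01 to -0.77 log2 on AI arrays, given as a description since Edil3 was chosen for its change.

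Fibronectin is the principal ligand of integrin α5β1 and, through its RGD motif, of several αv integrins. Fn1 (transcript cluster 10355403) read 10.50, 10.63, 10.62 and 10.64 log2 in AD cells, against 11.26, 11.26, 11.28 and 11.29 log2 in AI cells. The signal was bright on every array, AD replicate 1 lay below the other AD arrays and the AI arrays were almost equal. Fn1 was 1.60-fold lower in AD cells, with a difference of -0.68 (standard error 0.05, adjusted p = 5.18e-05 from limma). The gap between the groups was 0.62 log2.

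Biglycan is a small leucine-rich proteoglycan that binds collagen and TGFβ and signals through Toll-like receptors, and it is a core protein of the matrix rather than an integrin ligand in the strict sense. Bgn (transcript cluster 10600169) read 5.39, 5.36, 5.55 and 5.85 log2 in AD cells, against 7.37, 7.37, 7.39 and 7.36 log2 in AI cells. All AD arrays were below their array median, AD replicate 4 was the highest of them, and the AI arrays differed by an SD of only 0.01. The difference was -1.84 (standard error 0.10, adjusted p = 8.33e-06 from limma), or 3.57-fold lower in AD cells, where the size of the ratio is not known exactly.

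Tgfbi encodes a fasciclin domain protein that TGFβ induces and that binds integrins and collagens. Tgfbi (transcript cluster 10405587) read 8.22, 8.31, 8.28 and 8.62 log2 in AD cells, against 9.33, 9.42, 9.34 and 9.26 log2 in AI cells. The groups did not overlap, and AD replicate 4 and AI replicate 4 were the nearest arrays, 0.64 log2 apart. Tgfbi was 1.98-fold lower in AD cells, with a difference of -0.98 (standard error 0.09, adjusted p = 0.000131 from limma).

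Thrombospondin 1 is a trimeric glycoprotein that binds CD36 and CD47 and activates latent TGFβ. Thbs1 (transcript cluster 10474700) read 5.37, 5.30, 5.43 and 5.39 log2 in AD cells, against 5.37, 5.29, 5.38 and 5.47 log2 in AI cells. The phenotypes overlapped entirely and every signal was below its array median, so a difference in Thbs1 was not detectable at this signal. The difference was -0.0034 (standard error 0.06, adjusted p = 0.979 from limma), and its sign changed with the scaling of the arrays. For the other 6 genes with an adjusted p, Tnr, Sparc, Mfge8, Fn1, Bgn and Tgfbi, the exact two-sided permutation p was 0.0286. That is the smallest that 4 arrays against 4 allow, and Thbs1 had p = 0.914 by the exact test. These p describe the arrays and are not independent evidence, since results of the same contrast were known when the genes were chosen.

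The spread between replicates was not even across arrays. The SD of the 10 genes was 0.06 to 0.22 log2 on AD arrays against 0.01 to 0.12 log2 on AI arrays. AD replicate 4 gave the highest AD signal for 7 of the 10 genes (Sparc, Sparcl1, Edil3, Mfge8, Fn1, Bgn and Tgfbi), and AD replicate 1 gave the lowest for 7. For Fn1 this rank of AD replicate 4 rested on 10.64 log2 against 10.63 log2 in AD replicate 2. Deviations from the AD mean in AD replicate 4 ran from -0.04 to 0.31 log2 with a median of 0.12, and those in AD replicate 1 had a median of -0.11, with none above 0. In each of the 7 genes, AD replicate 4 was thus the AD array closest to the AI arrays. Without AD replicate 4 the differences were -1.94 for Bgn, -1.07 for Tgfbi, -0.74 for Mfge8 and -0.51 for Sparc. The same 7 genes were then called. The array also stood out beyond these genes: over all clusters, 1636 were called without it, against 1396 with every array. Dbh, higher in AD cells, was in turn lowest among AD arrays in AD replicate 4, at 9.06 log2 against 9.64 to 9.81 log2 on the remaining AD arrays. What sets AD replicate 4 apart was not tested.

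**Figure D2:**
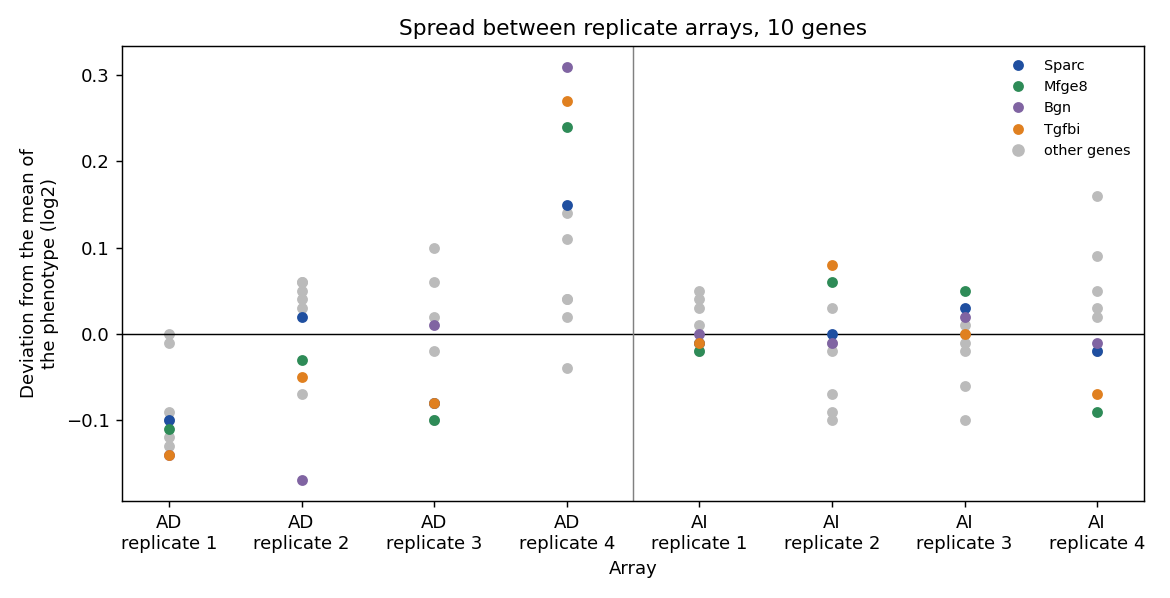
Deviation of each array from the mean of its phenotype (log2) for the 10 genes, with the 4 AD arrays left and the 4 AI arrays right. Each dot is 1 gene; in AD replicate 4 the deviations reach 0.31 log2, for Bgn, and the AI arrays scatter around 0 by up to 0.16 log2.

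Other matrix genes and receptors of the same families were mostly not called. From 103 listed genes, 100 were measured, of which 6 were lower in AD cells, 94 were not called and none was higher, beside 2.53% of all clusters called lower and 1.39% called higher. The split depended on scaling, with 5 lower and 2 higher after median centring and 6 lower and 2 higher after quantile normalization. Without a fold limit, limma gave an adjusted p under 0.05 to 22 of the 100 with less signal in AD cells and to 6 with more, beside 9.62% and 8.50% of all clusters. The median difference of the list was -0.01 log2. Of these genes, 62 lay below the array median on all 8 arrays, among them all 11 small leucine-rich proteoglycans other than Bgn, so that the sizes of their differences are not known exactly. Among these, Hapln1, Ltbp2, Vtn and Egfl6, picked here after their values were seen, had an adjusted p under 0.05 in limma, with differences of -0.31, -0.30, -0.31 and 0.33, under the 1.5-fold limit.

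Ccn1, Npnt, Ecm1 and Eln were the matrix genes called outside the 10, all lower in AD cells. Ccn1 (Cyr61), a matricellular ligand of αv integrins, averaged 6.53 ± 0.18 log2 on AD arrays against 8.18 ± 0.18 log2 on AI arrays (SD, n = 4 per phenotype), a difference of -1.65 (adjusted p = 2.56e-05 from limma). Npnt, nephronectin, a ligand of integrin α8β1, averaged 8.02 ± 0.25 log2 on AD arrays against 9.56 ± 0.06 log2 on AI arrays, and was 2.90-fold lower in AD cells. Ecm1, a secreted glycoprotein of skin and vessel matrix, was 2.41-fold lower in AD cells, where AD replicate 4 read 7.77 log2 and the remaining AD arrays 6.89 to 7.12 log2. Eln, the gene for elastin, was 1.56-fold lower in AD cells with a difference of -0.64, which became -0.56 and under the limit with each array centred on its median.

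In families of the list without a call, the gene with the largest difference is given. The differences were 0.13 for the tenascin gene Tnn, -0.38 for Spock2 of the SPARC family and 0.31 for the thrombospondin gene Thbs3. They were 0.07 for Stab1, a fasciclin domain receptor, -0.13 for Fmod, fibromodulin, and -0.10 for Dmp1, an acidic protein of bone and dentin. Vcan, versican, a large proteoglycan that counters adhesion, had 0.56 (standard error 0.10, adjusted p = 0.00442 from limma), just under the limit toward AD cells, and it was called higher in AD cells under 6 of the alternative settings.

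Among integrin subunits known to bind these proteins, Itga5 and Itgb3 were lower in AD cells and 8 of the 10 were not called. Over all clusters, 2.53% were called lower. Of the subunits not called, 4 lay below the array median on all 8 arrays. The remaining ones, Itgb5, Itgb1, Itga8 and Itgav, had differences of -0.23, -0.12, -0.09 and -0.07. Of these, only Itgb5 had an adjusted p under 0.05 (0.0114 from limma). Itga5, of the fibronectin receptor, averaged 5.89 ± 0.12 log2 on AD arrays against 6.66 ± 0.08 log2 on AI arrays (SD, n = 4 each). In AD replicate 1 the Itga5 signal was below the array median, so the size of its difference is not known exactly. Itgb3, of the vitronectin receptor, averaged 7.75 ± 0.12 log2 and 8.52 ± 0.07 log2 in AD and AI cells (SD, n = 4 each). Of 10 other receptors, none was called, and Tlr4, a receptor for biglycan, had the largest difference with -0.41 (adjusted p = 0.00385 from limma). Its signal was also below the array median in AD replicate 1.

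**Figure D3:**
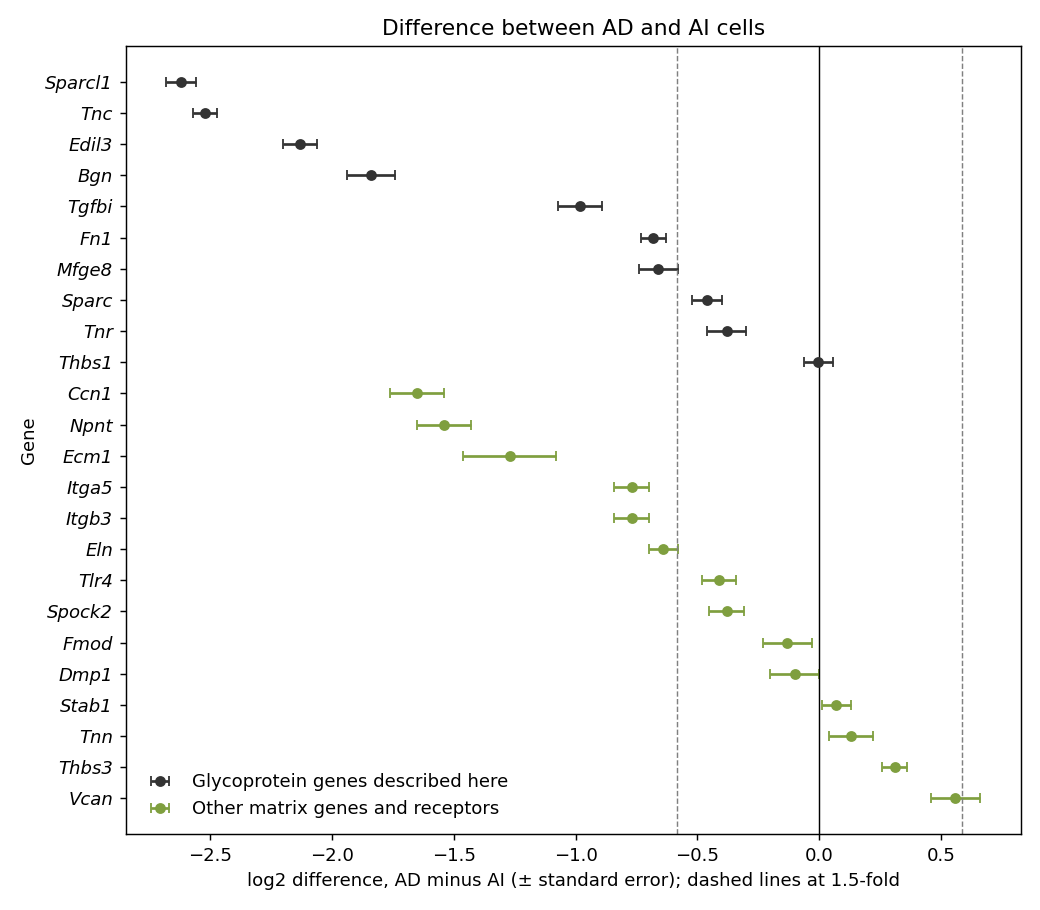
Difference between AD and AI cells (log2, AD minus AI, with the standard error) for the 10 glycoprotein genes, and below them for other matrix genes and receptors. Of the latter, only called genes and the largest difference of each family without a call are drawn. Of the 100 measured, 6 were called and 94 were not. Dashed lines mark 1.5-fold; 7 of the 10 genes lie left of the lower line, Sparc, Tnr and Thbs1 do not, and among the other genes Ccn1 has -1.65 and Vcan 0.56.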

How the data were processed

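The study's GCRMA table of an Affymetrix mouse gene array was used as deposited: log2 signals that the authors made by background correction and normalization, with Partek 6.5 and GCRMA named in the submitters' notes. The annotation build of the arrays is not given in the sources used here. Arrays give no counts, and their number limits the precision. Clusters were named by the platform annotation, and all 10 genes matched RefSeq by gene number. AD and AI arrays were compared over all 35556 clusters with limma 3.58.1 in R 4.3.3 (no covariate, Benjamini-Hochberg adjustment). On simulated data of the same size, 84.0% of clusters changed 1.75-fold and 98.0% of those changed 2-fold were recovered.

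Members and lists were chosen with earlier results of these data known. Named genes were the 10 members and, per family of the other list, up to 3 called genes per direction or the largest difference where none was called. Exact permutation tests, motif searches and plots used Python 3.11.15, numpy 2.4.6, pandas 2.3.3 and matplotlib 3.10.9. Alternatives were other scalings, filters, variance models, thresholds, a replicate block, the mean of a gene's clusters and leaving out each array.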

Additional observations from a re-analysis of the deposited data

Results flagged for a closer look

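In AD replicate 1, Fn1 read 10.50 log2, below the remaining AD arrays at 10.62 to 10.64 log2, a gap that was 0.83 of the range of the 4 arrays. Chance alone gives about 1 such array in 20 groups, and this was the only one among 48 groups of 4 arrays examined.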

How the results depend on the processing

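The number of members called was 7 under every alternative at the same threshold except median centring, where Mfge8 fell under 1.5-fold and 6 were called. It was 9 at any fold, and 4 at a fold of at least 2 (Tnc, Sparcl1, Edil3 and Bgn). Leaving out each array in turn gave 7 called members each time, 6 to 7 called genes of the other list and 1217 to 1636 called clusters. The other list had 28 genes at any fold and 3 at 2-fold, and all clusters had 6444 and 254. The difference of Thbs1, near background, was 0.01 with array weights, 0.07 with median centring, 0.03 with quantile normalization, 0.02 without AD replicate 2 and 0.03 without AI replicate 4, with a range of -0.03 to 0.03 over single arrays left out. Median centring moved the median of all clusters to 0.08 log2 and turned the share of calls lower in AD cells from 64.5% of 1396 to 47.0% of 1378. Vcan was called with array weights, median centring and quantile normalization and without AD replicate 1, AD replicate 4 or AI replicate 4. With the replicate block, 7 members, 6 other genes and 1352 clusters were called. Deviations of same-numbered AD and AI arrays correlated at -0.175 to 0.078, and those of arrays with different numbers at -0.178 to 0.254. No shared deviation by number was seen, but whether the cultures were paired cannot be told from these values. Signal near background limits Tnc, Edil3, Bgn, Tnr and Thbs1.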

Other observations

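A few matrix genes outside the 10 had more signal in AD cells at an adjusted p under 0.05 in limma without reaching 1.5-fold; apart from Vcan and Thbs3 they were picked here after their values were seen. Ccn4 (Wisp1), a CCN family protein of the Wnt pathway, had a difference of 0.54, and Tinagl1, a basement membrane protein, had 0.50. Matn3, a matrilin of cartilage, had 0.41, and Egfl6, an integrin ligand of the hair follicle, had 0.33. Ccn4 lay below the array median on 2 AD and 4 AI arrays, Matn3 on 1 AD and 3 AI arrays, and Egfl6 on every array. The sizes of these differences are thus not known exactly, except for Tinagl1. For Matn3 the AD and AI arrays overlapped. In the other direction, the bright genes Ncan, the proteoglycan neurocan, Agrn, the proteoglycan agrin, Mfap2, a microfibril protein, and Ltbp4, which holds latent TGFβ, had -0.50, -0.45, -0.41 and -0.40. These 4 averaged 7.94 to 10.60 log2 on AD arrays against 8.44 to 11.01 log2 on AI arrays.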
